A study of Mus musculus with 6 samples.

Results

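The 26S proteasome is the protease that degrades most ubiquitin-tagged proteins in the cytosol and nucleus, and its genes carry the Psm prefix in the mouse. The genes described here are the rows of the deposited annotated expression table that are protein coding and whose symbol is Psm, then a letter from a to g, then a digit. The rule found 50 genes of 25032 with at least 1 read. By role they are 14 constitutive subunits of the 20S core, 17 subunits of the 19S cap and 5 immune subunits (Psmb8, Psmb9, Psmb10, Psme1 and Psme2). A further 10 are other activators, an inhibitor or assembly factors. The rest are Psme2b, a retrogene copy of Psme2, Psmb11, a core subunit known from the thymus, and Psmc3ip and Psme3ip1, partners that match the rule by name and are no subunits. Of the 50 genes, 49 passed the filter on low counts. Psmb11 did not, with 2 reads in GFP replicate 2, 2 in TDP43-NLS replicate 1 and 0 in the other libraries.

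The cells were BV2, an immortalised line of mouse microglia, the macrophages of the brain. Poly(A) RNA was sequenced from 3 libraries labelled as overexpressing GFP, the control protein, and 3 labelled as overexpressing TDP43-NLS, which the series' design text writes as TDP-43 NLSmut, a form of this RNA-binding protein altered in its nuclear localisation signal. The labels name neither the promoter nor the vector of either construct, nor whether a line was 1 clone. Nor do they say whether the replicates were separate cultures, and p-values here reflect only the spread among these 6 samples, which may be technical. Totals ran from 15062131 to 18005592 counted reads. Tardbp, the gene of TDP-43 itself, counted 7229, 7160 and 8154 reads under the GFP label and 5671, 6506 and 6633 under the other, which is -0.26 ± 0.05 on the log2 scale (standard error, edgeR adjusted p = 0.000291). The construct has no row of its own in the counts, and whether its reads were counted to Tardbp is not known here. These counts therefore do not measure the overexpression. The groups are called by their labels, and all directions rest on those. Of 11 microglia and macrophage markers, 10 reached a mean of 10 CPM (reads of a gene scaled to library size), with a summed level of 2787 to 2823 CPM in the GFP libraries and 2833 to 2880 CPM in the others. Aif1 was under 10 CPM, as were the homeostatic microglial markers P2ry12, Tmem119 and Siglech, and Sall1 was not found among genes with a read. The summed lists for neurons, astrocytes, oligodendrocytes, T and NK cells and fibroblasts were each at most 5.39 CPM in every library.

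The 20S core is a barrel of α rings (Psma genes) around β rings (Psmb genes), and 3 of its β subunits carry the protease sites: Psmb6 (β1), Psmb7 (β2) and Psmb5 (β5). Interferon and other inflammatory signals let cells build the immunoproteasome, in which Psmb9, Psmb10 and Psmb8 take the places of Psmb6, Psmb7 and Psmb5 and favour peptides suited to MHC class I molecules. The 19S cap (Psmc ATPases and Psmd subunits) recognises and unfolds tagged substrates, and Psme1 and Psme2 (PA28α and PA28β) form an interferon-inducible cap in its place. Microglia are known to raise the immune forms when activated. The transcription factor NRF1, the product of Nfe2l1, raises constitutive subunit genes when proteasome activity falls short, through antioxidant response elements in their promoters.

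Promoter sequence is shown for the constitutive and immune partners of the β5 and β1 sites, because the results turn on these pairs. RefSeq windows of the mouse build GRCm38.p6 were matched by symbol for 43 of the 50 genes. The 250 bases before the annotated start are given 5′ to 3′ on the strand of the gene, with position -1 just before the start. They lie at chr14:54617996-54618245 (minus strand) for Psmb5, chr17:34197945-34198194 (plus) for Psmb8, chr11:70525107-70525356 (plus) for Psmb6 and chr17:34187331-34187580 (minus) for Psmb9. Capitals mark a match to an antioxidant response element (TGACNNNGC) in Psmb5 and Psmb6 and to a gamma-activated site (TTCNNNGAA), the element of interferon-γ signalling, in Psmb8.
Psmb5: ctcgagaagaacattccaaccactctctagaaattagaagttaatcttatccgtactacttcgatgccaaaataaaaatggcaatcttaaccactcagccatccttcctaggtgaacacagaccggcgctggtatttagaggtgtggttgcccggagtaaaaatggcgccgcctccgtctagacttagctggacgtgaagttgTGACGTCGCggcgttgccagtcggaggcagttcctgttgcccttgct
Psmb8: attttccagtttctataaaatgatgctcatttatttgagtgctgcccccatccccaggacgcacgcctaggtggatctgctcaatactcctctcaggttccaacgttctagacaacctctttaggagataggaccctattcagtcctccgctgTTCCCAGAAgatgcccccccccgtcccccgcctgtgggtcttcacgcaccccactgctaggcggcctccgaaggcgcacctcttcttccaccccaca
Psmb6: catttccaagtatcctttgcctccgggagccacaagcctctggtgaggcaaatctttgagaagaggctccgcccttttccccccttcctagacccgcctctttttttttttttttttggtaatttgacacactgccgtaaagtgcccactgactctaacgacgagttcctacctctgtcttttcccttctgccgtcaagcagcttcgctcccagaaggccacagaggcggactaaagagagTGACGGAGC
Psmb9: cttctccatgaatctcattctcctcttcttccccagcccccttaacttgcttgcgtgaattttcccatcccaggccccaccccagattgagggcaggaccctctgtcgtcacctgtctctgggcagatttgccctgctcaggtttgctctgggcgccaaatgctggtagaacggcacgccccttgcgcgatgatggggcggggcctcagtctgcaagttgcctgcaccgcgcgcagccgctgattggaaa
The matches span positions -47 to -39 in Psmb5, -9 to -1 in Psmb6 and -97 to -89 in Psmb8, and the Psmb9 window holds neither pattern.

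Both strands of every window were searched for these patterns, for the interferon-stimulated response element (GAAA, any 2 bases, GAAA) and for an NF-kB element (GGG, any 5 bases, CC), and no match of one pattern overlapped a match of another in these genes. Over 32841 windows of the same length, 10.2% held the antioxidant pattern, 7.02% the gamma-activated site, 2.98% the interferon-stimulated pattern and 45.8% the NF-kB pattern. The counts by role are of genes with a match in any of their windows, and a gene can have more than 1 window, so they are not the same unit as these percentages. None of the 5 immune genes held the antioxidant or the interferon-stimulated pattern, 1 of 5 held the gamma-activated site, and 3 of 5 the NF-kB pattern. The gamma-activated site was in 0 of 11 core genes and 0 of 14 cap genes. It was also in 1 of 9 genes of the other activators and assembly factors, Psmg1, which fell. The NF-kB pattern was in 7 of 11 core genes, 9 of 14 cap genes and 3 of these 9. The antioxidant pattern was in 2 of 11 core genes, 2 of 14 cap genes and 1 of 9 genes of the other activators and assembly factors. The last 3 of these genes are shown with their matches in capitals, because they were not called higher as Psmb5 and Psmb6 were. The match is on the strand of the gene in Psmd9 and on the opposite strand in Psmc6 and Psmd12. The stretches lie at chr14:45329587-45329616 (plus) for Psmc6, chr11:107479278-107479307 (plus) for Psmd12 and chr5:123228149-123228178 (plus) for Psmd9.
Psmc6: ccagccagtaGCTAAGTCAggcattgctca
Psmd12: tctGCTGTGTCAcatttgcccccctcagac
Psmd9: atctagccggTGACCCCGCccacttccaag
The interferon-stimulated pattern was in Psmb3 and Psmd4, which rose, and in Psmd9, which fell. For Psmb3, a core gene that rose, the stretch lies at chr11:97703261-97703290 (plus), with the match on the opposite strand.
Psmb3: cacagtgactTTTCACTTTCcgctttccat
A match describes these letters only. Of the genes with the antioxidant pattern, Psmb5 and Psmb6 rose and Psmd9 fell. Psmc6 (log2 fold change 0.09, adjusted p = 0.134) and Psmd12 (0.08, adjusted p = 0.180) were not called.

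Proteasome genes shifted by small amounts, in both directions. At an adjusted p under 0.05 in edgeR's quasi-likelihood test, 16 of the 49 tested genes rose under the TDP43-NLS label and 8 fell, and 25 were not called. Over all 13199 tested genes 57.5% were called, 29.3% higher and 28.2% lower, so a call by itself was common. Among tested genes whose mean reached 10 CPM, 63.7% were called. Of the immune subunits, 4 of 5 rose and 0 fell, and their median log2 fold change was 0.48. The constitutive core had 7 higher, 2 lower and 5 not called, with a median of 0.14. The 19S cap had 3 higher, 2 lower and 12 not called, with a median of 0.02. The other activators, the inhibitor and the assembly factors had 1 higher, 3 lower and 6 not called, with a median of -0.06 that was -0.19 without GFP replicate 2. The median of all tested genes was 0.00 on the same scale.

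The sizes were modest beside the rest of the transcriptome. The log2 fold changes of the proteasome genes had an SD of 0.22, against 0.81 over all tested genes and 0.53 over those whose mean reached 10 CPM. An absolute log2 fold change over 0.5 was reached by 3 of the 49 (Psmb9, Psme2 and Psme2b), against 26.4% of all tested genes. Without GFP replicate 2 that count was 0 of the 49 (Psmb9 0.46, Psme2 0.33 and Psme2b 0.29), against 27.0% of these genes. Tested against a log2 fold change of 0.5, 0 of the 49 were called by edgeR, against 14.9% of all tested genes (9.25% higher and 5.64% lower), while 24 had been called against no change. The genes took 0.817% ± 0.0494 of all reads in the GFP libraries and 0.843% ± 0.00584 in the TDP43-NLS libraries (SD, n = 3 each). By library the shares were 0.845%, 0.759% and 0.845% under GFP and 0.839%, 0.841% and 0.850% under TDP43-NLS. Only GFP replicate 2 was apart from the others.

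**Figure D1:**
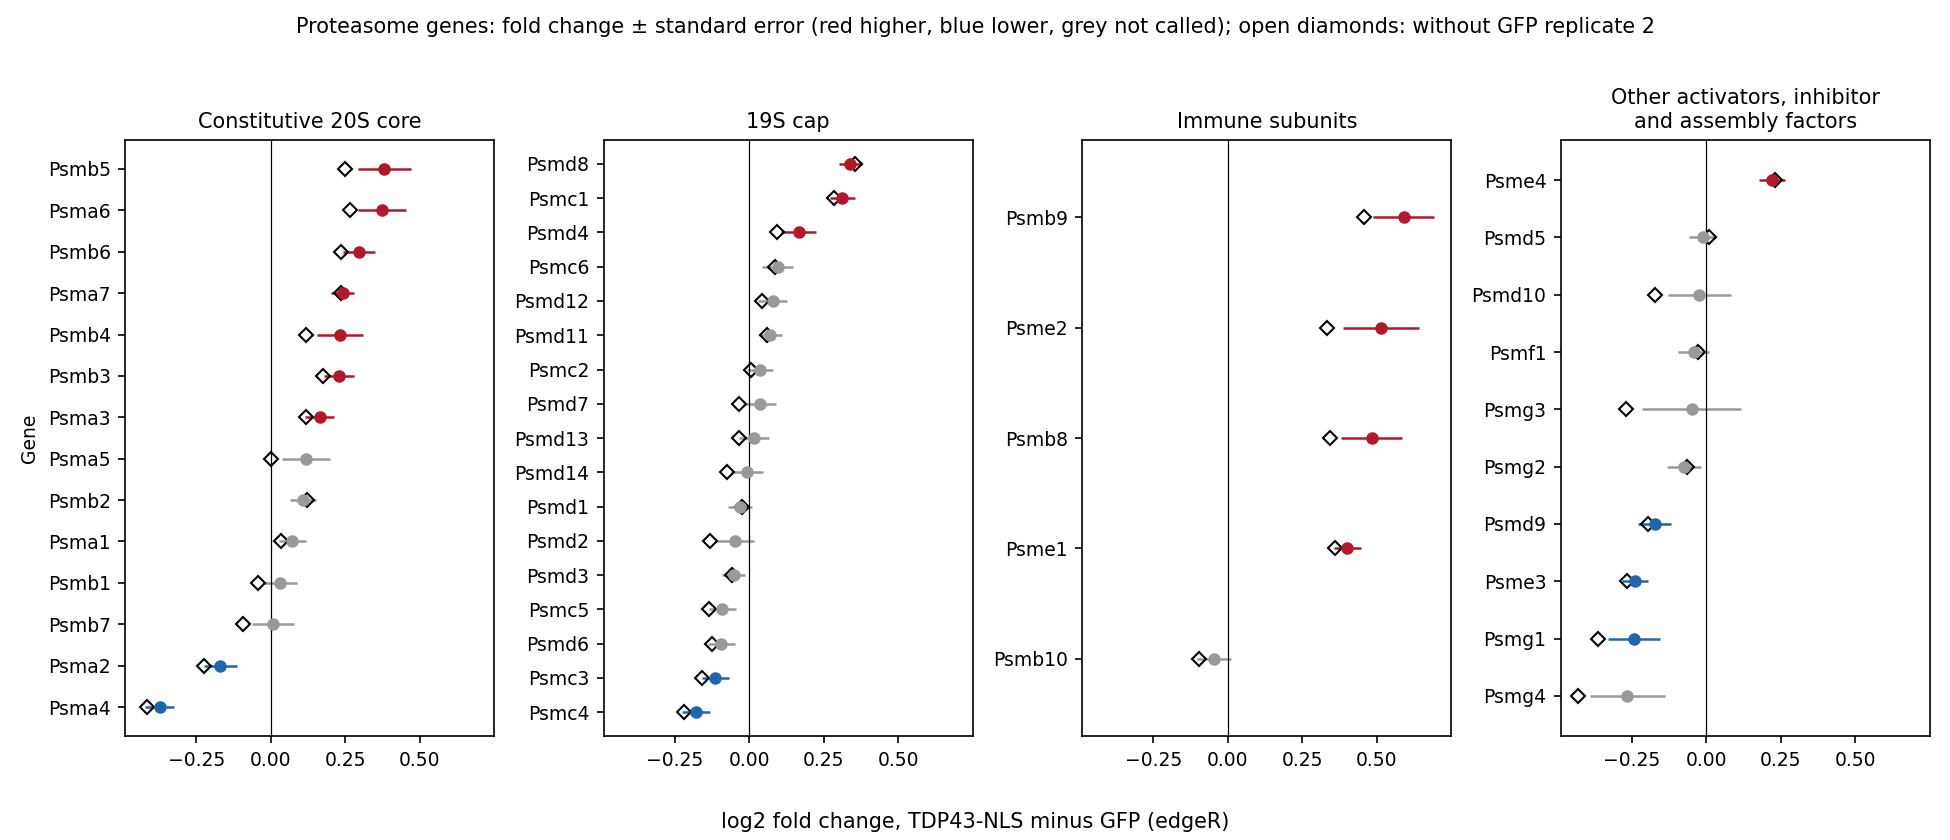
The log2 fold change of each proteasome gene (x axis, TDP43-NLS minus GFP, edgeR) is shown with its standard error, 1 panel per role, red for genes called higher, blue for lower and grey for not called. Open diamonds give the value without GFP replicate 2. In the immune panel 4 of 5 genes sit to the right of 0, and the cap panel is centred near 0.

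The GFP libraries were not alike for these genes. GFP replicate 2 was the lowest GFP library in 39 of the 49 tested proteasome genes, against 35.1% of all tested genes. Its median log2 distance from the mean of GFP replicates 1 and 3 was -0.13 over the proteasome genes and 0.02 over all tested genes. The distance was -0.63 for Psme2, -0.46 for Psmb8, -0.44 for Psmb9 and -0.42 for Psmb5, while it was 0.05 for Psmd8 and -0.01 for Psma7. Over 8950 tested genes whose mean reached 10 CPM it moved with the gene length implied by the deposited counts and FPKM: the median was -0.25 for genes under 1000 bases, -0.11 for 1000 to 2000 bases and 0.06 for genes over 5000 bases. Psmb8 and Psmb9, with implied lengths of 3381 and 3660 bases, were low in GFP replicate 2 although the median of their length class, 3000 to 5000 bases, was 0.01. The counts of called genes are therefore also given without this library. Without it 17 of the 49 were called higher and 14 lower, and 61.3% of all tested genes were called (31.3% higher and 30.0% lower). By role the counts higher and lower were then 4 and 0 for immune genes, 8 and 3 for the core, 3 and 5 for the cap, and 1 and 6 for the other activators, inhibitor and assembly factors. With offsets that follow the length trend of each library, chosen after seeing the data, 16 were higher and 10 lower, and 59.1% of all tested genes were called (30.4% higher and 28.7% lower).

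**Figure D2:**
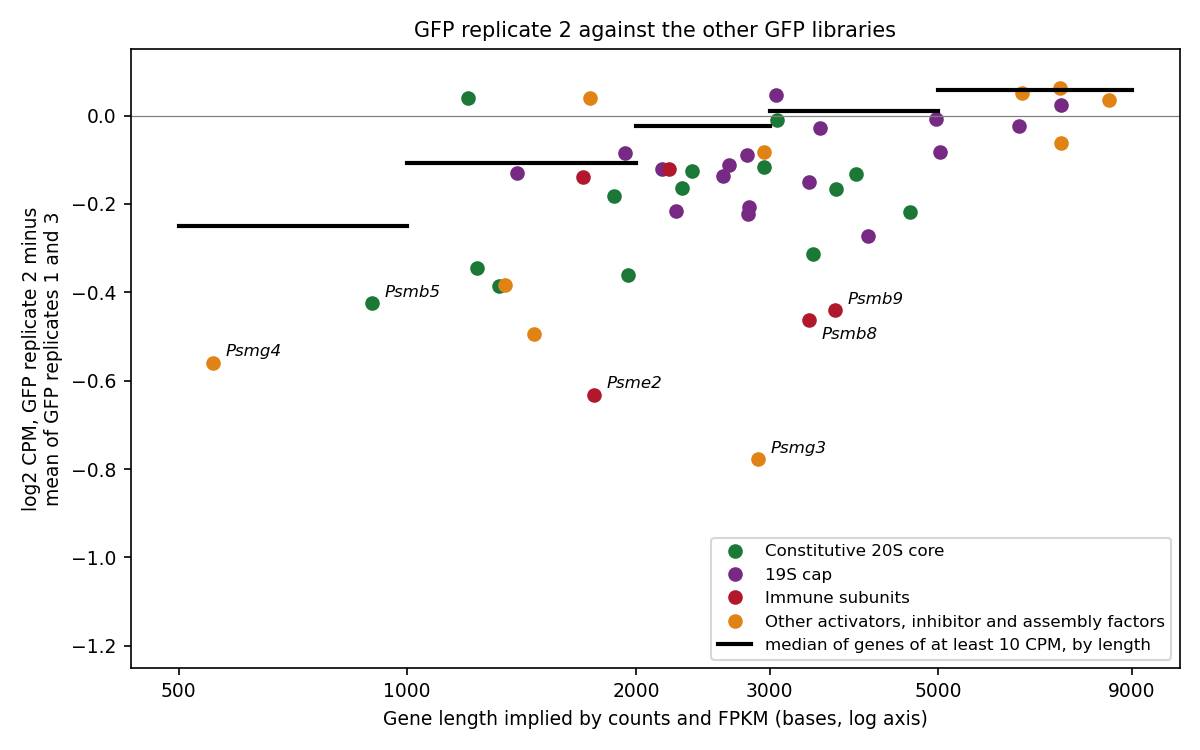
Each point is a proteasome gene, with its implied length in bases on a log x axis and, on the y axis, log2 CPM in GFP replicate 2 minus the mean of GFP replicates 1 and 3. Black bars give the median of the tested genes of a length class whose mean reached 10 CPM, rising from -0.25 to 0.06, and most proteasome genes lie below the bar of their class.

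The immunoproteasome genes were higher in the TDP43-NLS libraries except for Psmb10. Psmb8 (ENSMUSG00000024338, GRCm39 chromosome 17, 34416695 to 34420428, plus strand), the immune β5 subunit LMP7, stood at 44.9, 30.1 and 38.3 CPM in the GFP libraries and 54.7, 51.8 and 51.4 CPM in the TDP43-NLS libraries. All TDP43-NLS libraries were above all GFP libraries, and GFP replicate 2 was the lowest. Psmb8 rose 1.40-fold, by 0.48 ± 0.10 on the log2 scale (adjusted p = 0.00132), and by 0.34 without GFP replicate 2 (adjusted p = 8.35e-06). Psmb9 (ENSMUSG00000096727, chromosome 17, 34400961 to 34406738, minus strand), the immune β1 subunit LMP2, had 23.3, 16.4 and 21.2 CPM against 28.1, 31.9 and 31.4 CPM. Again the groups did not overlap. Psmb9 rose 1.51-fold, by 0.59 ± 0.10 on the log2 scale (adjusted p = 0.000282), and by 0.46 without GFP replicate 2. Its 5′ side overlaps the start of Tap1 on the opposite strand, which had 53.2 ± 2.70 and 86.1 ± 2.97 CPM (SD, n = 3 each), and strand use in counting was not given in the sources used here, so reads of the overlap cannot be told apart.

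Psmb10 (ENSMUSG00000031897, chromosome 8, 106662367 to 106665076, minus strand), the immune β2 subunit MECL-1, did not move with its partners. It had 75.6, 70.1 and 79.0 CPM in the GFP libraries and 76.8, 69.6 and 71.2 CPM in the TDP43-NLS libraries. The groups overlapped, with a log2 fold change of -0.05 ± 0.06 (adjusted p = 0.501) and of -0.10 without GFP replicate 2 (adjusted p = 0.0861).

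Both subunits of the PA28 cap rose. Psme1 (chromosome 14, 55815580 to 55818986, plus strand), PA28α, had 110.0, 101.1 and 110.0 CPM in the GFP libraries and 142.5, 140.4 and 140.9 CPM in the TDP43-NLS libraries. Both groups were narrowly spread and did not overlap. Psme1 rose 1.32-fold, by 0.40 ± 0.05 (adjusted p = 6.26e-06), and by 0.36 without GFP replicate 2. Psme2 (chromosome 14, 55824898 to 55828570, minus strand), PA28β, had 88.0, 55.3 and 83.5 CPM against 96.0, 113 and 114 CPM. GFP replicate 2 was far below the other libraries and TDP43-NLS replicate 1 was the lowest of its group, yet the groups did not overlap. Psme2 rose 1.43-fold, by 0.51 ± 0.13 (adjusted p = 0.00372), and by 0.33 without GFP replicate 2, a value smaller by over 1.5 times (adjusted p = 1.59e-06).

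Psme2b, an intron-poor copy of Psme2 on chromosome 11, followed Psme2 in every library. It had 41.0, 24.1 and 41.2 CPM in the GFP libraries and 44.5, 53.1 and 52.9 CPM in the TDP43-NLS libraries, a log2 fold change of 0.51 ± 0.15 (adjusted p = 0.00985) that became 0.29 without GFP replicate 2. Its call ended with DESeq2 (adjusted p = 0.0962) and without TDP43-NLS replicate 3 (adjusted p = 0.0524). For every 100 reads counted to Psme2, 43.6 to 49.3 were counted to Psme2b in the 6 libraries. The counting of reads that match both copies was not given in the sources used here, so the split between them is uncertain. Summed over both copies, the level was 129, 79.5 and 125 CPM in the GFP libraries and 141, 166 and 167 CPM in the others.

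**Figure D3:**
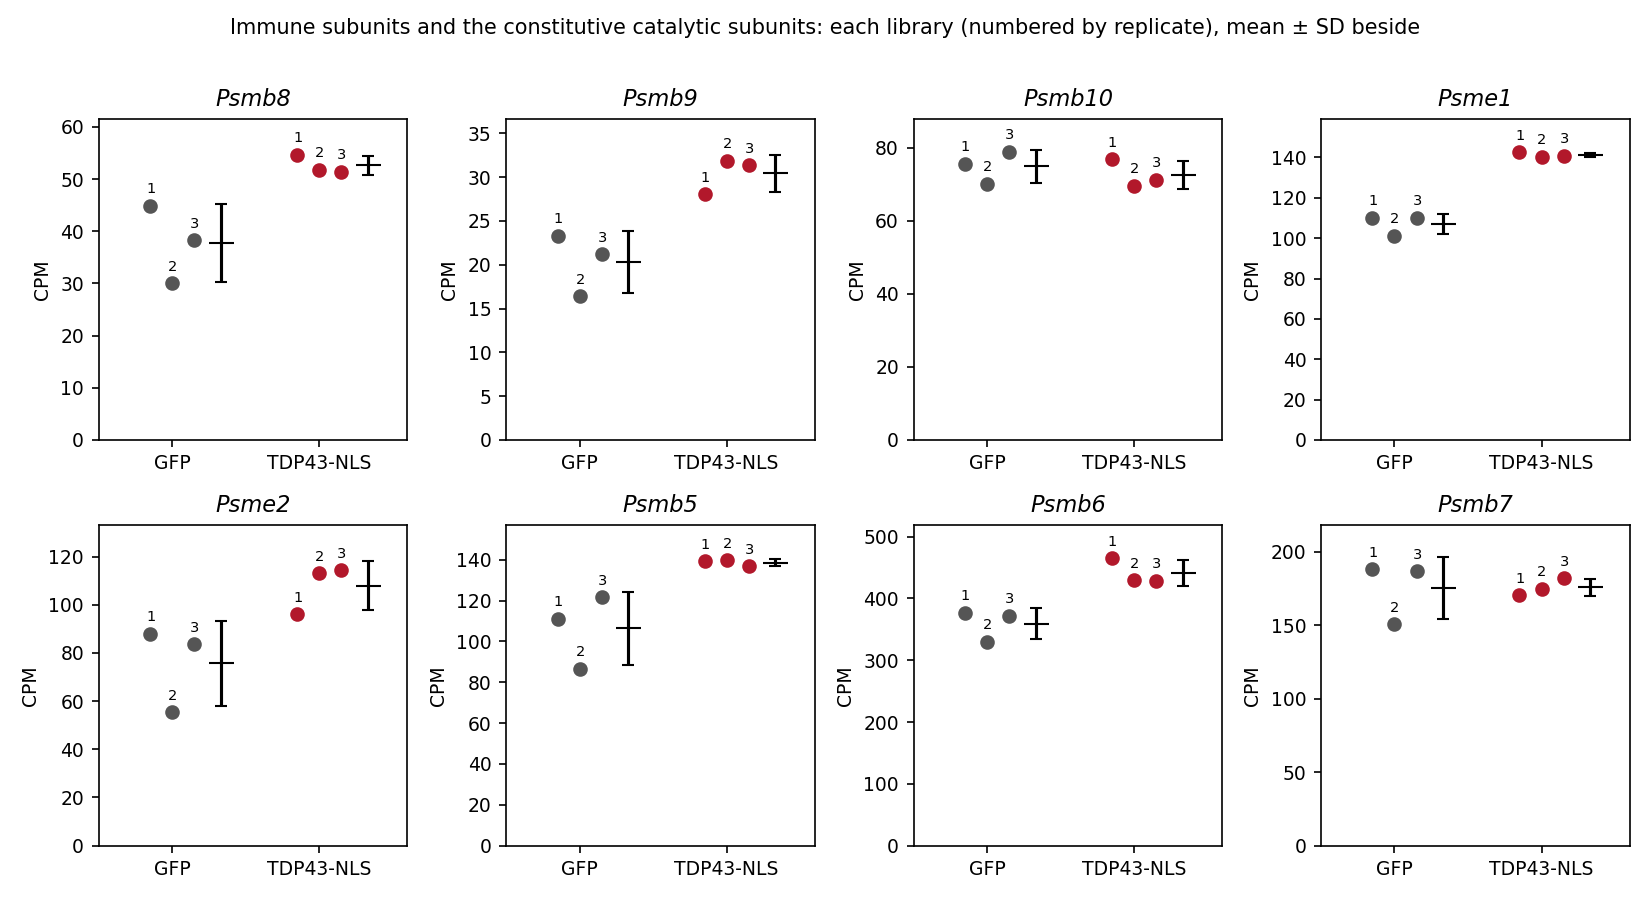
CPM of the immune subunits and of the constitutive catalytic subunits in each library (points, numbered by replicate, grey GFP and red TDP43-NLS), with the mean ± SD beside the points and axes that start at 0. The groups are apart in Psmb8, Psmb9, Psme1, Psme2, Psmb5 and Psmb6 and overlap in Psmb10 and Psmb7.

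The constitutive partners showed the same split between sites. Psmb5 (ENSMUSG00000022193, chromosome 14, 54851576 to 54855479, minus strand), the β5 chymotrypsin-like site, had 111, 86.6 and 122 CPM in the GFP libraries and 139, 139.6 and 137 CPM in the TDP43-NLS libraries. The groups did not overlap. Psmb5 rose by 0.38 ± 0.09 (adjusted p = 0.00253), and by 0.25 without GFP replicate 2, smaller by over 1.5 times. Psmb6 (chromosome 11, 70416193 to 70418684, plus strand), the β1 caspase-like site, had 377, 329.8 and 372 CPM against 465, 429 and 428 CPM. Psmb6 rose by 0.30 ± 0.05 (adjusted p = 0.000424) with no overlap between the groups. Psmb7 (chromosome 2, 38478048 to 38534099, minus strand), the β2 trypsin-like site and the partner of Psmb10, had 188, 151 and 186 CPM against 170.3, 175 and 182 CPM. These values overlapped, and the log2 fold change was 0.01 ± 0.07 (adjusted p = 0.950). Without GFP replicate 2 it was -0.09, and Psmb7 was then called lower (adjusted p = 0.0344). Psmb7 overlaps Nek6 on the opposite strand.

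Levels per length put the constitutive subunits above their immune partners. On the FPKM scale (reads scaled to gene length and library size) the GFP libraries held 119.7 ± 20.01 for Psmb5 and 11.3 ± 2.21 for Psmb8, and 194 ± 13.5 for Psmb6 and 5.61 ± 0.972 for Psmb9 (SD, n = 3 each). Psmb7 and Psmb10 were close, at 51.7 ± 6.14 and 44.4 ± 2.56 FPKM. These scales depend on the implied lengths, 899 bases for Psmb5 and 3381 for Psmb8. The FPKM ratio of Psmb8 to Psmb5 was 0.0945 ± 0.0121 under the GFP label and 0.101 ± 0.00304 under TDP43-NLS, and that of Psmb9 to Psmb6 was 0.0288 ± 0.00314 and 0.0354 ± 0.00397. The ratio of Psmb10 to Psmb7 was 0.864 ± 0.0645 and 0.830 ± 0.0653. None of the 3 ratios passed exact two-sided permutation tests (p = 0.5, 0.2 and 0.5 in the order given, each 0.5 after Benjamini-Hochberg adjustment), where 3 libraries against 3 cannot go below 0.1. Immune subunits made up 14.4% ± 0.326 of the summed FPKM of the 6 catalytic genes in the GFP libraries (14.0% to 14.7%) and 13.1% ± 0.126 in the others (12.9% to 13.2%). That FPKM share, which was not tested, was lower in all TDP43-NLS libraries although Psmb8 and Psmb9 rose. It depends on the implied lengths. In CPM, which are not scaled to length, the share of the same genes overlapped between the groups. Psmb10 carried most of the immune FPKM, and Psmb5 and Psmb6 rose too.

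In the rest of the constitutive core, subunits of both ring types rose and 2 α subunits fell. Psma7 (α4) had 221, 215 and 213 CPM in the GFP libraries and 258, 249 and 259.9 CPM in the TDP43-NLS libraries, and rose by 0.24 ± 0.04 (adjusted p = 0.000176, 0.24 without GFP replicate 2). Psma6 (α1) had 240.3, 192 and 249 CPM against 268, 307 and 307 CPM, and rose by 0.37 ± 0.08 (adjusted p = 0.00161, 0.27 without GFP replicate 2). The groups of both genes were apart, and GFP replicate 2 was low for Psma6 only. Psmb3 (β3) rose by 0.23 ± 0.05 (adjusted p = 0.00167) and Psma3 (α7) by 0.16 ± 0.05 (adjusted p = 0.0113). Psmb4 (β7) rose by 0.23 ± 0.08 (adjusted p = 0.0197), but by 0.12 without GFP replicate 2. Its call ended without TDP43-NLS replicate 1 (adjusted p = 0.0807) or 2 (adjusted p = 0.0651). These, with Psmb5 and Psmb6, are the 7 core genes that rose.

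Psma4 (ENSMUSG00000032301, chromosome 9, 54858074 to 54865314, plus strand), the α3 subunit, had 181, 164 and 178 CPM in the GFP libraries and 131, 132 and 140.0 CPM in the TDP43-NLS libraries. Every TDP43-NLS library was below every GFP library. Psma4 fell 1.30-fold, a log2 fold change of -0.37 ± 0.05 (adjusted p = 1.95e-05, -0.41 without GFP replicate 2), and was the lowest of all the proteasome genes on that scale. Psma2 (α2) had 165, 142 and 155 CPM against 139.9, 131 and 140.4 CPM, a log2 fold change of -0.17 ± 0.05 (adjusted p = 0.0175). The groups of Psma2 were apart by a small margin, and its call ended without GFP replicate 1 (-0.12, adjusted p = 0.0895) and without TDP43-NLS replicate 2 (-0.13, adjusted p = 0.125). Psma1, Psma5, Psmb1, Psmb2 and Psmb7 were not called, with log2 fold changes of 0.01 to 0.12. Psmb2 was called higher, at 0.12, when GFP replicate 2 was left out (adjusted p = 0.0123). In FPKM, the core ran in the GFP libraries from 31.7 ± 2.67 for Psmb1 to 194 ± 13.5 for Psmb6, with Psma6 at 186 ± 24.6 and Psmb4 at 182 ± 25.0, so the order of the highest 3 was within their spread.

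Cap genes mostly stayed within the spread between libraries, with a few exceptions. Psmd8 (ENSMUSG00000030591, chromosome 7, 28873613 to 28880126, minus strand), the lid subunit Rpn12, had 270.0, 275 and 263 CPM in the GFP libraries and 342, 337 and 343 CPM in the TDP43-NLS libraries. Its groups were far apart, and GFP replicate 2 was the highest of its group. Psmd8 rose 1.26-fold, by 0.34 ± 0.04 (adjusted p = 6.34e-06, 0.35 without GFP replicate 2). Psmc1 (Rpt2), an ATPase of the base, had 355, 336 and 359 CPM against 419, 439 and 446 CPM, with no overlap, and rose by 0.31 ± 0.04 (adjusted p = 3.47e-05). Psmd4 (Rpn10), a ubiquitin receptor, had 345, 290.5 and 334 CPM against 377, 363 and 347 CPM. The margin between its groups was narrow. It rose by 0.17 ± 0.06 (adjusted p = 0.0287), by 0.09 without GFP replicate 2, and lost the call without TDP43-NLS replicate 1 (0.14, adjusted p = 0.128) or 2 (0.17, adjusted p = 0.0861).

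Among cap genes that fell, Psmc4 (Rpt3), an ATPase, had 168, 155 and 170.2 CPM in the GFP libraries and 149, 146 and 141 CPM in the TDP43-NLS libraries. The groups were apart, and the log2 fold change was -0.18 ± 0.05 (adjusted p = 0.00481, -0.22 without GFP replicate 2). Psmc3 (Rpt5), another ATPase, had 341, 308 and 335 CPM against 308, 301 and 301 CPM, so GFP replicate 2 lay among the TDP43-NLS libraries. Its log2 fold change of -0.11 ± 0.05 was just past the threshold (adjusted p = 0.0455), and the call ended when any library other than GFP replicate 2 was left out (adjusted p from 0.0962 to 0.183). Without GFP replicate 2 it was -0.16, and Psmc5, Psmd2 and Psmd6 were called lower as well, at -0.13, -0.13 and -0.12. The cap count was then 3 higher and 5 lower of 17, with a median of -0.03. The other 12 cap genes ranged from -0.09 to 0.09 on the log2 scale with all libraries. In FPKM they ran from 28.7 ± 0.424 for Psmd11 to 184 ± 18.98 for Psmd2 in the GFP libraries.

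Summed over the subunits, the core stood at 2644 ± 221 CPM in the GFP libraries and 2944 ± 27.0 CPM in the others, the cap at 4190.4 ± 211 and 4324 ± 23.1 CPM, and the immune subunits at 316 ± 37.2 and 405 ± 5.79 CPM (SD, n = 3 each). GFP replicate 2 was the lowest library in each sum, at 2389, 3947 and 273 CPM. GFP replicates 1 and 3 had 2763 and 2780 CPM for the core and 342 and 332 CPM for the immune subunits. For the cap they had 4318 and 4306 CPM, within the range of the TDP43-NLS libraries (4303, 4321 and 4349 CPM). The ratio of the median core FPKM to the median cap FPKM was 0.996 ± 0.0573 (0.953 to 1.06) and 1.17 ± 0.0505 (1.13 to 1.23), so all TDP43-NLS libraries were above all GFP libraries. Sums and the ratio were not tested. In bulk RNA, a change in the share of cells that express a gene and a change in RNA per cell cannot be told apart.

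**Figure D4:**
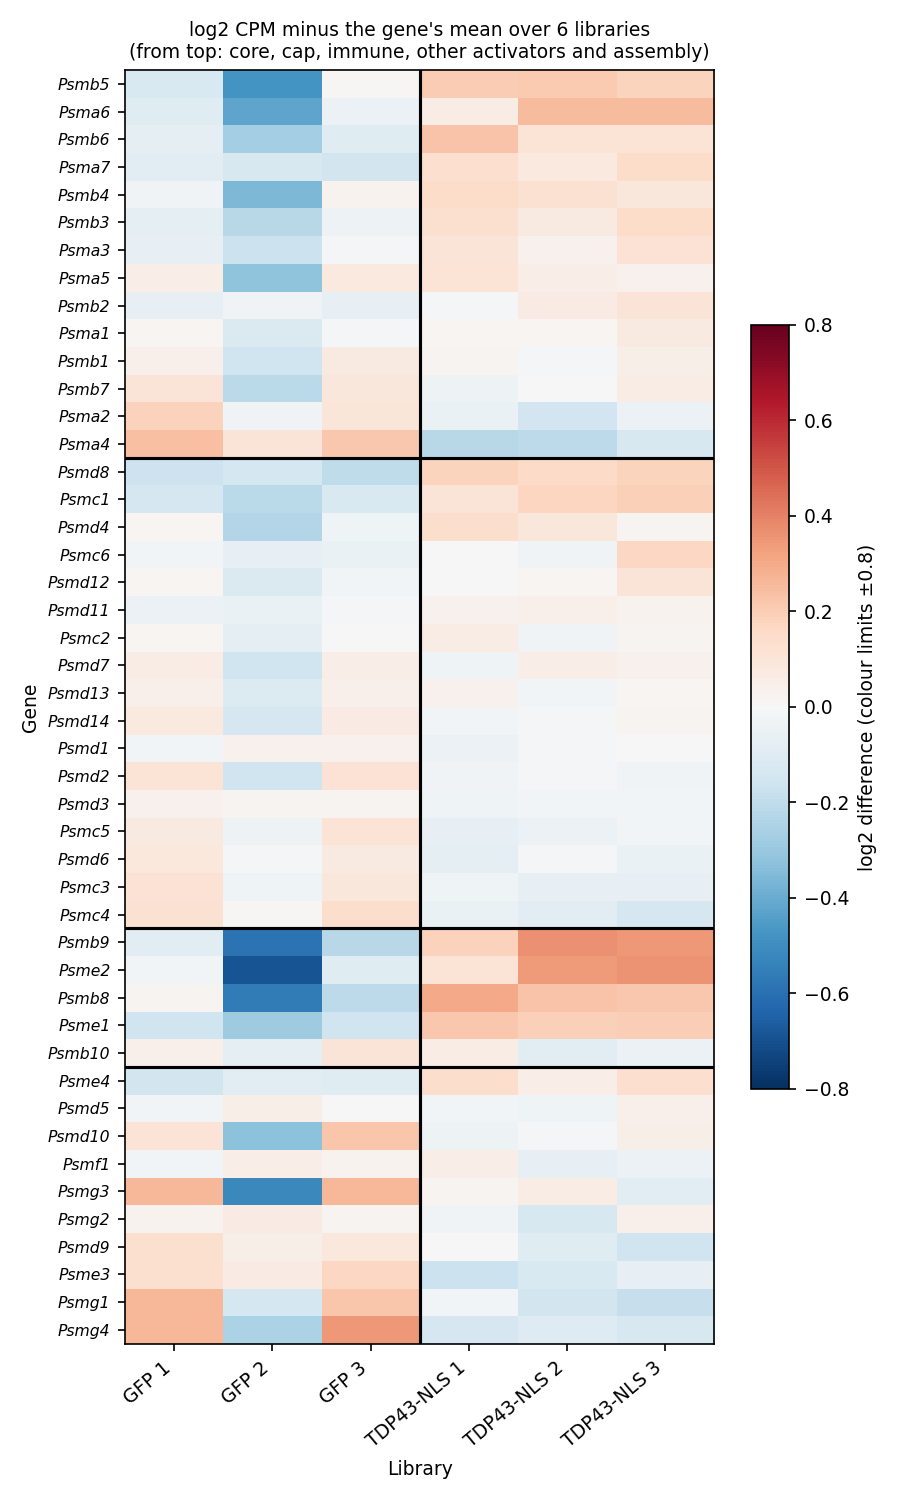
Each row is a proteasome gene and each column a library, and the colour is log2 CPM minus the mean of the gene over 6 libraries (red above, blue below, limits ±0.8). Black lines separate the roles and the groups. The column of GFP replicate 2 is blue for most core and immune genes, and the immune rows other than Psmb10 are red in all 3 TDP43-NLS libraries.

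The alternative activators moved in opposite directions. Psme3 (chromosome 11, 101207039 to 101214363, plus strand), the nuclear activator PA28γ, had 295, 283 and 304 CPM in the GFP libraries and 240.3, 248 and 258 CPM in the TDP43-NLS libraries. Every TDP43-NLS library was lower, and Psme3 changed by -0.24 ± 0.04 (adjusted p = 0.000379). Psme4 (chromosome 11, 30721726 to 30830361, plus strand), the activator PA200, had 108, 113 and 112 CPM against 132, 125 and 132 CPM, and rose by 0.22 ± 0.04 (adjusted p = 0.000778). Without GFP replicate 2 the values were -0.27 for Psme3 and 0.23 for Psme4. Psmf1, the inhibitor PI31, had 53.3, 56.2 and 55.1 CPM against 56.1, 51.6 and 52.2 CPM. These values overlapped (-0.04 ± 0.05, adjusted p = 0.502).

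Chaperones that build the complex were at or below the GFP level. Psmg1, a chaperone of the α ring, had 83.3, 62.8 and 80.6 CPM in the GFP libraries and 68.1, 62.5 and 60.8 CPM in the TDP43-NLS libraries, a log2 fold change of -0.24 ± 0.09 (adjusted p = 0.0303). GFP replicate 2 lay within the TDP43-NLS range. The value was -0.36 without that library, and the call ended without GFP replicate 1 (-0.17), without GFP replicate 3 (-0.20) and without TDP43-NLS replicate 2 (-0.22) or 3 (-0.20). Psmd9 (the cap chaperone p27) fell by 0.17 on the log2 scale (adjusted p = 0.0154), a call that ended without GFP replicate 1 (adjusted p = 0.0587) and without TDP43-NLS replicate 2 (adjusted p = 0.0720) or 3 (adjusted p = 0.104). Psmg4, another α-ring chaperone, had 20.7, 14.4 and 21.9 CPM against 15.6, 16.0 and 15.7 CPM, the largest shift of the assembly factors but not called (-0.27 ± 0.12, adjusted p = 0.0850). Without GFP replicate 2, Psmg4 (-0.43), Psmg3 (-0.27) and Psmd10 (-0.17, the cap chaperone gankyrin) were called lower too, which made 6 of the 10 genes of this role. Psmg2 and the cap chaperone Psmd5 were not called with or without it. Of the partners that match by name, Psme3ip1 fell by 0.12 with all libraries (adjusted p = 0.0382), a call that ended when any library other than GFP replicate 3 was left out (adjusted p from 0.0621 to 0.120), and Psmc3ip was not called.

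Groups that did not overlap were counted next to the calls. All 3 TDP43-NLS libraries were above all GFP libraries in 18 of the 49 tested proteasome genes and below in 8, against 32.0% and 31.2% of all tested genes (63.2% together). Among tested genes whose mean reached 10 CPM, the groups did not overlap in 68.5%. By role the counts above and below were 4 and 0 of 5 immune genes, 8 and 2 of 14 core genes, 4 and 3 of 17 cap genes and 1 and 2 of the 10 other activators, inhibitor and assembly factors. The count of core genes above was over the share of all genes, and both cap counts were under it. These are descriptions of genes chosen by name, with no test over the set.

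Some proteasome genes, with large or small shifts of their own, lay in chromosomal regions where most genes shifted one way. The median log2 fold change of the other tested genes within 5 Mb was 0.30 around Psma6, 0.18 around Psmc1 and 0.17 around Psma3, all on chromosome 12, whose median was 0.17. It was -0.15 around Psma4, on chromosome 9 (chromosome median -0.31), and -0.28 around Psmg1 and -0.32 around Psmd2, on chromosome 16 (chromosome median -0.21). Around Psmb8 and Psmb9, which adjoin Tap1 and Tap2 on chromosome 17, it was 0.06, around Psme1 and Psme2 also 0.06, around Psmd8 0.03 and around Psma7 -0.12. It was 0.08 around Psmb10. The log2 fold changes of Psmb8, Psmb9, Psme1, Psme2, Psmd8 and Psma7 were thus well above their local medians. Those of Psma3 (0.16) and Psmg1 (-0.24) were close to theirs. That of Psmd2, which was not called, was -0.05 and also above its local median. These differences were not tested. The part of these regional shifts in the results was not tested.

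**Figure D5:**
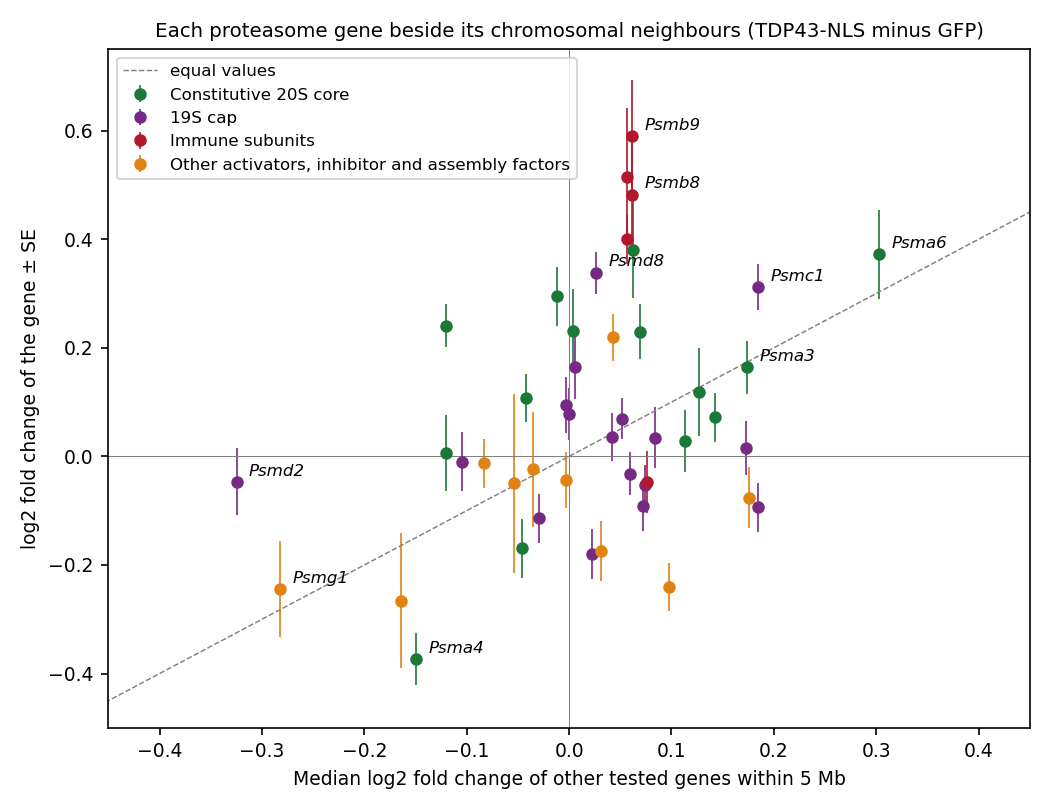
The log2 fold change of each proteasome gene (y axis, with its standard error, coloured by role) is set against the median log2 fold change of the other tested genes within 5 Mb (x axis), and the dashed line marks equal values. Psma3 and Psmg1 lie near the line, and Psmb8, Psmb9 and Psmd8 lie well above it.

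Other genes of the pathway were read from a list of 35, of which 34 were found and tested. Of these 8 rose, 11 fell and 15 were not called (median log2 fold change -0.03). The 19 called of 34 are close to the 57.5% called over all tested genes, and without GFP replicate 2 the list had 9 higher and 12 lower. Nfe2l1, the gene of NRF1, had 165, 159 and 164 CPM in the GFP libraries and 243, 256 and 237 CPM in the TDP43-NLS libraries. It rose by 0.59 ± 0.04 (adjusted p = 8.58e-08), and was the only gene of this list called against a log2 fold change of 0.5 (adjusted p = 0.0450). Genes around NRF1 and core assembly moved both ways. Nfe2l2, the gene of NRF2, fell by 0.30, Nfyc, a subunit of the CCAAT-binding factor NF-Y, by 0.44, and Ddi2, the protease that activates NRF1, by 0.12, while Ngly1, which deglycosylates NRF1, rose by 0.39. The maturation factor Pomp, which the core needs to close, had 127, 99.8 and 127 CPM against 110.0, 109 and 111 CPM and was not called (-0.10, adjusted p = 0.269), but changed by -0.21 without GFP replicate 2 (adjusted p = 2.27e-05).

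Proteins that dock on the cap had 2 genes higher, 4 lower and 5 not called, with or without GFP replicate 2, and 6 called of 11 is close to the 57.5% of all tested genes. Adrm1 (Rpn13), a ubiquitin receptor, had 191, 181 and 188 CPM in the GFP libraries and 146, 163 and 152 CPM in the TDP43-NLS libraries, and fell by 0.28 (adjusted p = 0.00025). Uchl5, the deubiquitinase that binds Adrm1, fell by 0.34 (adjusted p = 0.000347), and Usp14, the other cap-bound cysteine deubiquitinase, by 0.19. Ecpas, an adaptor and scaffold of the 26S particle, rose by 0.26 (adjusted p = 0.00124). Shuttle factors and the unfoldase p97 had 2 higher, 3 lower and 6 not called, so 5 of 11 were called, under the 57.5% of all tested genes. Ufd1, a cofactor of p97, fell by 0.48 (adjusted p = 1.8e-06). Vcp, p97 itself, was not called with all libraries (-0.10, adjusted p = 0.0758) and was called lower without GFP replicate 2 (-0.13, adjusted p = 0.00140). Of the ubiquitin genes and their activating enzymes, Uba6 rose by 0.49 (adjusted p = 4.39e-06) and Uba1 by 0.20 (adjusted p = 0.000513).

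Genes around the immunoproteasome in class I antigen processing formed a list of 11, of which 6 rose, 2 fell and 3 were not called, against 29.3% higher and 28.2% lower over all tested genes. Without GFP replicate 2, 6 were higher and 3 lower. Tap1 and Tap2, which carry peptides into the endoplasmic reticulum and whose genes lie beside Psmb8 and Psmb9 on chromosome 17, rose by 0.70 and 0.65, and Nlrc5, the activator of class I genes, by 0.71. B2m (β2-microglobulin) rose by 0.72. In these 4 genes the groups did not overlap: Tap2 ran from 11.1 to 15.7 CPM in the GFP libraries and from 20.04 to 22.8 CPM in the others. Tested by edgeR against a log2 fold change of 0.5, 3 of the 11 were called, against 14.9% of all tested genes. They were B2m (adjusted p = 0.000319), Nlrc5 (adjusted p = 0.000942) and Tap1 (adjusted p = 0.00249). Tapbp and Erap1, which load and trim the peptides, each rose by 0.14. Irf1, an interferon-γ-induced transcription factor, had 25.4, 21.4 and 24.2 CPM against 21.8, 21.4 and 22.3 CPM (-0.12, adjusted p = 0.196) and was not called, but was called lower without GFP replicate 2 (-0.19, adjusted p = 0.0232). Irf8 and Ifngr2, the latter a chain of the interferon-γ receptor, fell by 0.21 and 0.36. Psmb8 and Psmb9 had smaller log2 fold changes, 0.48 and 0.59, than these transporters, a difference that was not tested.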

How the data were processed

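Values come from 6 libraries, 3 labelled GFP and 3 TDP43-NLS. The authors deposited whole-number counts per gene and FPKM values with an annotation on GRCm39. The tools named in the submitters' processing notes are Bowtie2 2.2.3, HISAT2 2.1.0 and HTSeq 0.6.0, without roles or order. Strand use and the handling of multiply matching reads were not given in the sources used here. Per the labels' protocols, poly(A) RNA was made into libraries with a kit described without a strand-marking step.

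Counts were tested with edgeR 4.0.16 (R 4.3.3, TMM scaling, filterByExpr with at least 10 reads and 15 in total, quasi-likelihood test, group as the only term), and p-values were Benjamini-Hochberg adjusted over 13199 genes, with a threshold of 0.05. Called genes are said to have risen or fallen. A ± after a log2 fold change is its standard error. It was derived as the absolute log2 fold change divided by the square root of the quasi-likelihood F statistic. CPM are TMM-scaled. Overlapping genes of at least 1 CPM touch 10 of the 50 genes. Alternatives used DESeq2 1.42.0, other scalings, limma 3.58.1 on log2(FPKM + 1) or log2(FPKM + 0.1), no low-count filter, a test against 0.5, a replicate block and each library left out. Offsets that follow gene length were added after seeing the data. The scripts were tested on simulated data, with changed genes drawn from tested genes at any level. There edgeR called 24 of 50 genes changed 1.25-fold and 37 of 50 changed 1.5-fold, with 18 false calls. A gene that was not called may therefore still have changed by such amounts.

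Named genes are the 5 immune subunits, the 3 constitutive catalytic subunits, Psme3, Psme4, Psmf1, untested genes, and up to 4 called genes each way with the smallest adjusted p per role. Others were named after their values were seen. The members and lists were chosen with earlier results of these data known. Promoters are RefSeq sequences of GRCm38.p6 and were not joined to GRCm39 positions. Genes whose window was not in that table are only named. Windows of chromosome 18, 1 of them of a proteasome gene, were not used here and are not among the 32841 windows. Some genes of the lists are not reported here.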

Additional observations from a re-analysis of the deposited data

How the results depend on the processing

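The calls of Psmb8, Psmb9, Psme1, Psme2, Psmb3, Psmb5, Psmb6, Psma3, Psma4, Psma6, Psma7, Psmd8, Psmc1, Psmc4, Psme3 and Psme4 kept their direction and side of the threshold under DESeq2, other size factors, library totals, no low-count filter and length-trend offsets, and without each library in turn. Against a log2 fold change of 0.5, 1221 genes were higher and 744 lower in all, 0 and 0 in the core, 0 and 0 in the cap, 0 higher among immune genes, 0 and 0 among the other activators, inhibitor and assembly factors, and 1 and 0 among pathway genes. With limma on log2(FPKM + 1) without a filter, 3 core genes were higher and 1 lower, 2 immune genes were higher, and 5 pathway genes were higher. Lower cap genes numbered 1 with DESeq2, 4 with library totals, 4 with limma on log2(FPKM + 0.1), 4 with limma on log2(FPKM + 1) and 1 without a low-count filter. Leaving out each library in turn, lower genes ranged from 1 to 3 in the core, 1 to 5 in the cap and 1 to 6 among the other activators, inhibitor and assembly factors. The log2 fold change of Psmb7, not called with all libraries, reversed to -0.0304 with library totals, to -0.0244 with limma on log2(FPKM + 0.1), to -0.0241 with limma on log2(FPKM + 1), with or without a filter, and to -0.00972 with upper-quartile scaling. It ranged from -0.0921 to 0.0586 as each library was left out, below 0 without GFP replicate 2 and without TDP43-NLS replicate 3. The log2 difference of the Psmb10 to Psmb7 ratio ranged from -0.122 to 9.98e-06, the latter without GFP replicate 2. Causes were not tested. With limma on log2(FPKM + 1), calls were lost by Psme2 (adjusted p = 0.0504), Psma3 (0.0625), Psmg1 (0.0769), Psme2b (0.0836), Psmb4 (0.124) and Psmd4 (0.157), and the same genes lost them on log2(FPKM + 0.1). Psmd4 also lost its call with library totals (adjusted p = 0.0743). Psme3ip1 lost its call with DESeq2 (adjusted p = 0.103), and with a replicate block (adjusted p = 0.0622). Psmg4 was called lower with length-trend offsets (adjusted p = 0.00410).

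Deviations from the group means, taken over the tested genes, had correlations of -0.016, -0.011 and 0.002 between same-numbered libraries. These values show no strong shared effect. They cannot tell whether same-numbered libraries were prepared together, which the labels do not say. A replicate block gave 3848 genes higher and 3680 lower, with 7 and 2 in the core, 3 and 2 in the cap, 4 and 0 among immune genes, 1 and 3 among the other activators, inhibitor and assembly factors, and 9 and 10 among pathway genes.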
